A study of Mus musculus with 10 samples.

Results

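The 10 genes Dbp, Tef, Hlf, Nfil3, Bhlhe40, Bhlhe41, Usp2, Wee1, Noct, and Tsc22d3 carry the signal of the circadian clock to other genes of the cell, and they are described here as clock output factors and effectors. They were chosen by name, by matching the Ensembl identifier of each gene in the table to its symbol, and they are 10 of the 21939 genes in the table. The choice was made with earlier results of these data known. Shares of all genes are therefore given beside the members as description and not as a test of the list. All 10 had a summed count of at least 10 and were among the 13641 genes tested. Hepatocytes were isolated from 10 male mice, and their RNA was sequenced without prior culture, with 1 library per mouse. An age of 8 to 9 weeks is given for the mice in the study's methods. Mice 12 days after knockout induction, the stage of isolation here, are described there as older. The comparisons ask how the loss of the transcription factors Nrf2 and p65 in hepatocytes, alone and together, changes gene expression in the uninjured liver.

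The libraries labelled control came from 3 wild-type C57BL/6J mice, and those labelled Nrf2 KO, p65 KO, and DKO from 2 Nrf2 flox/flox, 2 p65 flox/flox, and 3 Nrf2:p65 double floxed mice. Every mouse, controls included, had been injected with AAV8Cre, an adeno-associated virus that expresses Cre recombinase from the hepatocyte-specific thyroxine-binding globulin promoter, 12 days earlier. Nrf2 is the product of Nfe2l2 and p65 that of Rela. The controls carried no floxed allele, so a floxed allele and its deletion cannot be told apart, and cells other than hepatocytes keep both genes. According to the study's methods, both the injections and the killing of the mice took place in morning hours. The exact hour of each mouse is not in the labels, and its part in the values of clock genes was not tested.

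Total counts were between 33707165 and 49897382 per library. Nfe2l2 was at 3434 to 5240 normalized counts in the 5 libraries labelled Nrf2 KO or DKO and at 1990 to 2318 in the 5 others, so its total was higher where it is labelled as deleted. Rela was at 1183 and 1209 in p65 KO, 1034 to 1488 in DKO, and 1221 to 1276 in control, a difference of -0.07 on the log2 scale in p65 KO that did not pass (edgeR adjusted p = 0.765). The table holds 1 total per gene, in which deleted exons cannot be counted apart, and the genotypes are therefore those of the labels. In the study, RT-qPCR and Western blot of hepatocytes at 12 days showed the knockout of Nrf2 and p65. Whether the sequenced mice were among those tested is not stated there. The 7 hepatocyte markers summed to at least 3408599 normalized counts in every library, and none of them was called in a comparison with control. Markers of other liver cells moved with the genotype. The 12 Kupffer cell markers summed to 368 to 957 normalized counts in control, 254 to 814 in Nrf2 KO, 4516 to 6190 in p65 KO, and 1715 to 2905 in DKO, with none at 0 in all libraries of a genotype, and 12 of 12 were called higher in p65 KO and 6 of 12 in DKO. In p65 KO, 7 of 7 sinusoidal endothelial and 5 of 6 stellate cell markers were also called higher. So were 3 of 8 markers of monocytes and dendritic cells, of which 6 were tested. No marker was called of T and NK cells (5 of 8 tested), B cells (2 of 4), neutrophils (3 of 5), or cholangiocytes (2 of 4). B cell and neutrophil markers summed to at most 9.14 and 19.3 normalized counts in p65 KO, too few to show whether these cells changed. In DKO, 1 marker each of sinusoidal endothelial cells, stellate cells, monocytes and dendritic cells, and T and NK cells was called higher. These marker counts depended on single libraries, with 7 of 12 Kupffer cell and 1 of 7 endothelial markers called in p65 KO without p65 KO 1, and with 0 of 12 Kupffer cell markers called in DKO without control 1 or DKO 1.

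In the mammalian clock, the activators BMAL1 and CLOCK bind E-boxes and switch on the genes of their own repressors, the PER and CRY proteins, and of output genes such as Dbp. DBP, TEF, and HLF are basic leucine zipper activators of the PAR family that bind a further element, the D-box, in genes of liver metabolism, and NFIL3 (also called E4BP4) represses through the same element. The transcripts of these genes cycle strongly over the day in the liver, with Dbp and Nfil3 at their highest at opposite times.

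The E-box CACGTG, which reads the same on both strands, was found in the promoter window of 4 of the 10 genes, where the window holds the 250 bases before the annotated start of 1 transcript per gene and 20 bases from the start on. Among the windows of 13637 tested genes, 8.68% held it. The 4 windows are shown because they carry the element through which the core clock is known to act on its output genes. They lie at chr15:81695365-81695634 (plus strand, Tef), chr9:43978014-43978283 (plus strand, Usp2), chr6:108636376-108636645 (plus strand, Bhlhe40), and chr6:145811279-145811548 (minus strand, Bhlhe41) of GRCm39, and capitals mark the E-box.
Tef: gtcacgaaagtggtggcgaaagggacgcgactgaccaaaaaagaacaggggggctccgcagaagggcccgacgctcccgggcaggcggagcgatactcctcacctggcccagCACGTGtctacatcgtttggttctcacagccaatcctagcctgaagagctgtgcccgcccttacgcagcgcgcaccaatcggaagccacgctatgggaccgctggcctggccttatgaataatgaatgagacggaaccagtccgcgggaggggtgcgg
Usp2: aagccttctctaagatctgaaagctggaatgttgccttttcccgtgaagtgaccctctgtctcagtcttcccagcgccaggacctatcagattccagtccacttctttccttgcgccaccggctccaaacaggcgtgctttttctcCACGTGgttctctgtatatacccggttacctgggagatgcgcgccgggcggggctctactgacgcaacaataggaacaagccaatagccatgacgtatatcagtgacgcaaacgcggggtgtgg
Bhlhe40: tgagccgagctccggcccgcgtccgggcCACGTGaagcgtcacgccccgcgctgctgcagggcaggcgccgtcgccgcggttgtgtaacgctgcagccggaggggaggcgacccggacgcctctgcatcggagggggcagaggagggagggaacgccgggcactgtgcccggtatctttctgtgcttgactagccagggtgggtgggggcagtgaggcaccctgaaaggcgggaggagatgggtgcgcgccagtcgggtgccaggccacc
Bhlhe41: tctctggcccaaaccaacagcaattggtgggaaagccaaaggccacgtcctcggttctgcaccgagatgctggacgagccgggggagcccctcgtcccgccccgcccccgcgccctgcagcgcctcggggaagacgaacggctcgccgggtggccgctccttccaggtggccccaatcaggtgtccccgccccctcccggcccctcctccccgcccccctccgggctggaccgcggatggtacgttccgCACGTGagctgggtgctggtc
With the start counted as 0, the E-box ends 133 bases before the start in Tef, 99 bases before it in Usp2, and 217 bases before it in Bhlhe40, and it spans the start in Bhlhe41. The ROR element TAGGTCA, searched on both strands, was found in the window of 1 member, Dbp (2.05% of all windows), and the antioxidant response element TGACNNNGC, which Nrf2 is known to bind, in that of 1 member, Wee1 (12.0%). A κB site, the kind of element that p65 binds, was found in the window of 1 member, Bhlhe41 (4.71%). No window of the 10 held the D-box letters TTATGTAA or TTACGTAA (0.799% of all windows), the E-box variant CACGTT (5.25%), or a glucocorticoid response element (1.88%). All 4 genes with the E-box in this window were called higher in p65 KO, as were Dbp, Hlf, and Wee1, whose windows lack it. These matches describe letters in a window, and binding was not measured. The start used for the window lies inside the annotated gene for Tef, Nfil3, Bhlhe41, Noct, and Tsc22d3, and which start was used in these cells was not measured.

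In p65 KO hepatocytes, 7 clock output genes were higher than in control and 1, the repressor Nfil3, was lower. A gene was called when its adjusted p in edgeR's quasi-likelihood test was at most 0.05 and its log2 fold change was at least 1 in either direction, and 6.59% of all genes tested were called in this comparison, with 5.05% higher and 1.54% lower. The largest differences were those of Usp2, Bhlhe41, and Dbp, with log2 fold changes of 5.57, 4.41, and 4.35. The libraries of the 2 genotypes did not overlap for any of the 10 members, with 9 above and 1 below control, whereas 26.2% of all genes tested were above control without overlap and 23.8% below. The median log2 fold change was 2.07 over the members and 0.0009 over all genes. With scaling to library totals, the median of all genes shifted by 0.18 in this comparison and Noct was called as well. The Kupffer cell, endothelial, and stellate cell markers were higher in the same 2 libraries, and their part in these results was not tested. Fewer cells of a type and less RNA per cell cannot be told apart in such samples.

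In DKO hepatocytes, 4 of the 10 genes were called, all higher than control, namely Noct, Tsc22d3, Tef, and Usp2, against 2.38% of all genes in either direction and 1.36% higher. All 3 DKO libraries were above all 3 control libraries for 7 members (13.2% of all genes tested). The median log2 fold change was 1.63 over the members and 0.02 over all genes. In Nrf2 KO, 0 members were called by edgeR, DESeq2, or limma (0.55% of all genes by edgeR), 2 had an unadjusted p under 0.05, and the libraries overlapped with control for all 10, while 28.5% of all genes had no overlap.

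**Figure D1:**
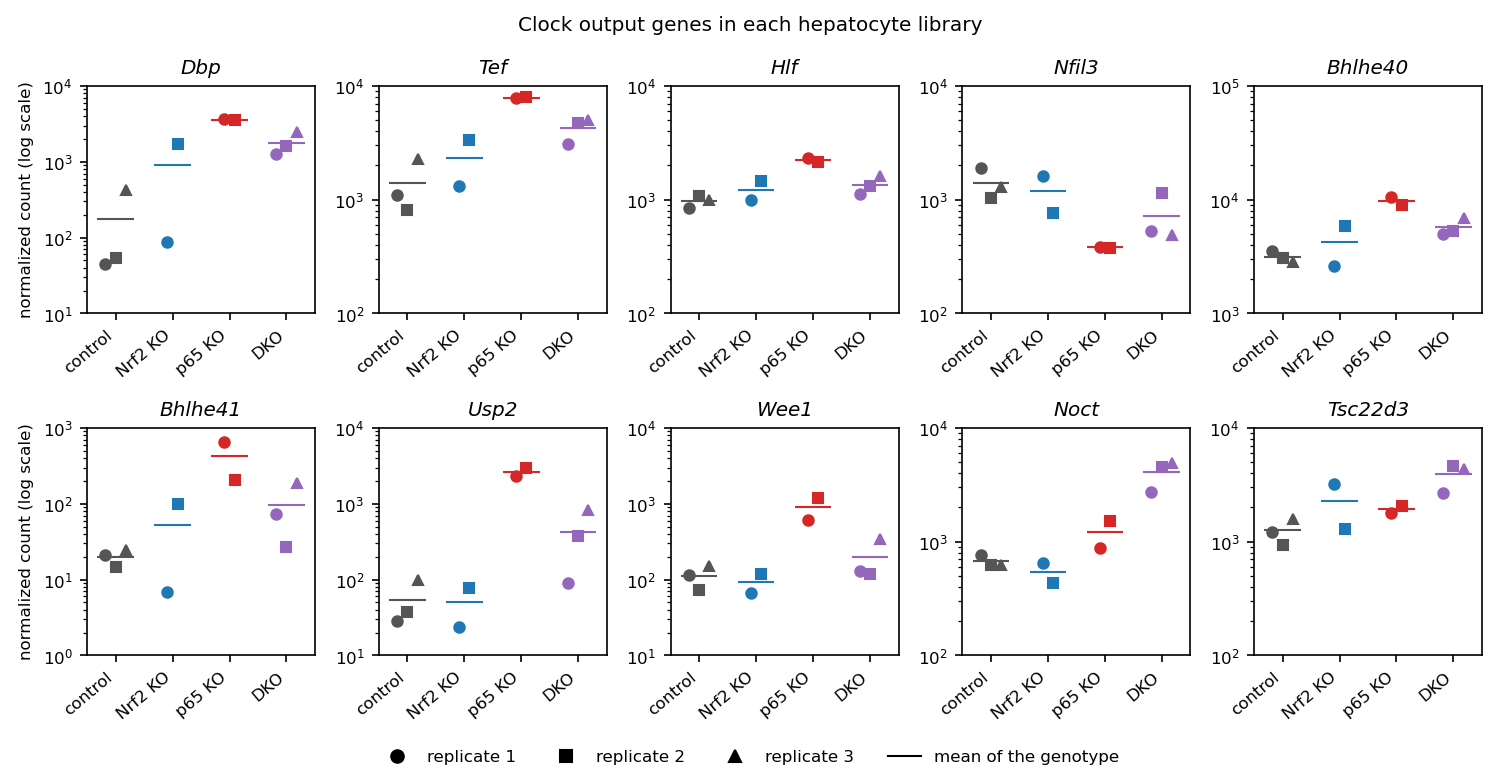
Normalized count (log scale) of each of the 10 clock output genes in the 10 hepatocyte libraries, with 1 panel per gene, 1 point per library shaped by its replicate number, and a line at the mean of the genotype. In p65 KO both libraries lie above all controls for 9 genes and below them for Nfil3, and for Noct and Tsc22d3 the DKO libraries are the highest group by mean.

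Dbp, the D-box activator with the strongest known rhythm of the family (chr7:45354512-45359627), was at 45.3, 54.1, and 426 normalized counts in the 3 control libraries, 87.0 and 1719 in Nrf2 KO, 3627 and 3589 in p65 KO, and 1271, 1621, and 2437 in DKO. Every p65 KO and DKO library was thus above every control, while the Nrf2 KO libraries lay on both sides of the highest control. The mean was 20.6-fold the control mean in p65 KO, with a log2 fold change of 4.35 ± 1.05 (SE, n = 3 and 2, adjusted p = 0.0214 by edgeR). The call was lost without control 1 (3.91, adjusted p = 0.0714), control 2 (3.92, 0.0625), p65 KO 1 (4.34, 0.0875), or p65 KO 2 (4.36, 0.0534), and without control 3 the log2 fold change was 6.17. In DKO the log2 fold change of Dbp was 3.33 ± 0.97 and did not pass (edgeR adjusted p = 0.0747). It was called with DESeq2 (3.35, adjusted p = 0.0324), with no filter on low counts (3.33, 0.0351), without control 3 (5.15, 0.0295), and without either Nrf2 KO library (3.33, 0.0302 in both cases). In Nrf2 KO it was 2.36 (95% interval 0.14 to 4.57, edgeR adjusted p = 0.487), and it was -1.02 when Nrf2 KO 2 was left out.

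Tef, the second PAR activator (chr15:81686622-81711064), followed the same order of genotypes at a smaller spread. Its normalized counts were 1101, 815, and 2268 in control, 1322 and 3380 in Nrf2 KO, 7850 and 7943 in p65 KO, and 3081, 4730, and 5038 in DKO. The p65 KO libraries were the highest of all 10, and the DKO libraries were above every control. The log2 fold change was 2.50 ± 0.43 in p65 KO (edgeR adjusted p = 0.0057), a call kept under every alternative, and 1.62 ± 0.40 in DKO (0.0408). The DKO call was lost with only the genotypes compared in the fit (edgeR adjusted p = 0.052) and when any of control 1, control 2, p65 KO 1, p65 KO 2, or DKO 1, 2, or 3 was left out, with edgeR adjusted p between 0.0538 and 0.151.

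Hlf, the third member of the family (chr11:90227221-90281761), differed least among the 3. It was at 844, 1081, and 990 normalized counts in control, 989 and 1465 in Nrf2 KO, 2307 and 2149 in p65 KO, and 1122, 1313, and 1632 in DKO. The p65 KO values did not overlap with those of any other genotype, and the lowest DKO value was close to the highest control. It differed from control by 1.20 ± 0.19 on the log2 scale in p65 KO (edgeR adjusted p = 0.00391, kept under every alternative) and 0.48 ± 0.17 in DKO (0.135).

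Nfil3, the D-box repressor (chr13:53121245-53137010), was the only member with a lower mean in p65 KO and in DKO than in control. Its normalized counts were 1894, 1041, and 1306 in control, 1603 and 764 in Nrf2 KO, 387 and 378 in p65 KO, and 529, 1136, and 492 in DKO. Both p65 KO libraries were below all others, and 2 of the 3 DKO libraries were below every control while DKO 2 was within the control range. The log2 fold change was -1.88 ± 0.42 in p65 KO (edgeR adjusted p = 0.0169) and -0.98 ± 0.35 in DKO (0.138). The p65 KO call was lost without control 1 (-1.62, edgeR adjusted p = 0.0531), p65 KO 1 (-1.90, 0.116), or p65 KO 2 (-1.87, 0.0797). In DKO, Nfil3 was called without DKO 2 (-1.47, edgeR adjusted p = 0.0335).

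Because DBP and NFIL3 act on the same element in opposite ways, the count of Dbp was set against that of Nfil3 within each library, a ratio that does not depend on the scaling of libraries. With 0.5 added to each count, the log2 ratio was -5.37, -4.26, and -1.62 in control, -4.20 and 1.17 in Nrf2 KO, 3.23 and 3.25 in p65 KO, and 1.26, 0.51, and 2.31 in DKO. All p65 KO and DKO libraries were above all controls, and the 2 Nrf2 KO libraries spanned from within the control range to within the DKO range. The mean was -3.75 ± 1.93 (SD, n = 3) in control, -1.51 ± 3.79 (n = 2) in Nrf2 KO, 3.24 ± 0.0133 (n = 2) in p65 KO, and 1.36 ± 0.90 (n = 3) in DKO. On the log2 scale, p65 KO exceeded control by 6.98, DKO by 5.11, and Nrf2 KO by 2.23, and the last difference was -0.45 without Nrf2 KO 2. Without control 3, the differences were 8.05 in p65 KO and 6.17 in DKO. The ratio is of counts and not per length, so only its differences between libraries can be read, and it is given without a test.

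**Figure D2:**
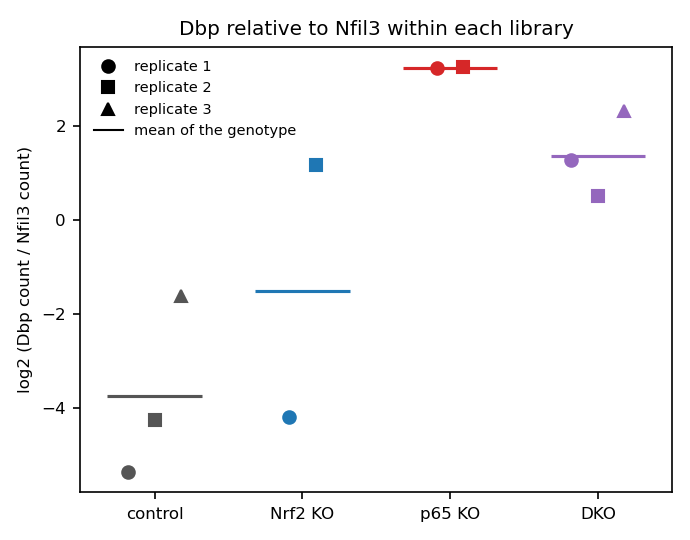
Log2 ratio of the Dbp count to the Nfil3 count (0.5 added to each) within each library, by genotype, with points shaped by replicate number and a line at the genotype's mean. The 2 p65 KO libraries sit together at 3.23 and 3.25, the 3 DKO libraries between 0.51 and 2.31, and the controls between -5.37 and -1.62.

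Bhlhe40 and Bhlhe41 encode DEC1 and DEC2, basic helix-loop-helix repressors that compete with BMAL1 and CLOCK at E-boxes. Bhlhe40 (chr6:108636626-108644502) was at 3514, 3043, and 2843 normalized counts in control, 2595 and 5906 in Nrf2 KO, 10646 and 8970 in p65 KO, and 5001, 5260, and 6930 in DKO. All p65 KO and DKO libraries were above all controls, and the p65 KO libraries were above those of every other genotype. Its log2 fold change was 1.65 ± 0.27 in p65 KO (edgeR adjusted p = 0.00478, kept under every alternative) and 0.87 ± 0.25 in DKO (0.0708).

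Bhlhe41 (chr6:145803969-145811430) was at far lower counts, with 21.0, 14.8, and 24.3 normalized counts in control, 6.92 and 98.6 in Nrf2 KO, 654 and 204 in p65 KO, and 73.6, 26.9, and 190 in DKO. The p65 KO libraries were above all others, although they differed from each other 3.21-fold, and the lowest DKO library was just above the highest control. The log2 fold change was 4.41 ± 0.93 in p65 KO (edgeR adjusted p = 0.0136) and 2.26 ± 0.88 in DKO (0.162). The p65 KO call was lost without control 1 (4.45, edgeR adjusted p = 0.051) or p65 KO 1 (3.34, 0.117), and the log2 fold change was 5.02 without p65 KO 2. Both genes are also expressed in immune cells, and the part of the Kupffer cell markers, at 4516 to 6190 in p65 KO and 368 to 957 in control, was not tested.

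Usp2 encodes a deubiquitinase that is known to act on clock proteins, and Wee1 a kinase that holds back entry into mitosis by phosphorylating CDK1. Usp2 (chr9:43978264-44006924) was at 28.7, 37.4, and 98.1 normalized counts in control, 23.7 and 77.6 in Nrf2 KO, 2312 and 2955 in p65 KO, and 89.4, 374, and 824 in DKO. The p65 KO libraries stood well above all others, and DKO 1 was within the control range while DKO 2 and DKO 3 were above it. The p65 KO mean was 48.1-fold the control mean, a call kept under every alternative, and the log2 fold change was 5.57 ± 0.79 (edgeR adjusted p = 0.00234) and became 6.30 without control 3. In DKO the log2 fold change of Usp2 was 2.94 ± 0.72 (edgeR adjusted p = 0.0392), and it was 3.69 without control 3. That call was lost without control 1 (2.65, edgeR adjusted p = 0.145), control 2 (2.73, 0.125), p65 KO 1 (2.95, 0.0593), p65 KO 2 (2.95, 0.0598), DKO 2 (3.03, 0.0644), or DKO 3 (2.06, 0.101), as well as with limma (2.01, 0.0813) and with only the genotypes compared in the fit (2.96, 0.0718).

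Wee1 (chr7:109721148-109747101) was called higher in p65 KO and was not called in DKO. It was at 115, 73.8, and 150 normalized counts in control, 67.2 and 117 in Nrf2 KO, 616 and 1192 in p65 KO, and 130, 120, and 340 in DKO. Both p65 KO libraries were above all others, and of the DKO libraries only DKO 3 was above the controls. Against control, the log2 fold change was 3.00 ± 0.47 in p65 KO (edgeR adjusted p = 0.00378, kept under every alternative) and 0.80 in DKO (95% interval -0.17 to 1.76, edgeR adjusted p = 0.308). Between DKO and p65 KO it was -2.20 ± 0.46 (edgeR adjusted p = 0.0288). This call was lost without p65 KO 1 (-2.60, edgeR adjusted p = 0.0613), p65 KO 2 (-1.65, 0.163), or DKO 1 (-1.97, 0.0928), and the log2 fold change was -2.84 without DKO 3. It was also lost with only the genotypes compared in the fit (-2.19, edgeR adjusted p = 0.0828).

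Noct encodes nocturnin, a rhythmic phosphatase of NADP(H), and it had its highest values in DKO and not in p65 KO. Noct (chr3:51128616-51159065) was at 772, 629, and 624 normalized counts in control, 656 and 432 in Nrf2 KO, 878 and 1537 in p65 KO, and 2715, 4561, and 4947 in DKO. Every DKO library was above every library of the other genotypes. The log2 fold change from control was 2.59 ± 0.27 in DKO (edgeR adjusted p = 0.00102, kept under every alternative), whereas it was 0.84 ± 0.29 in p65 KO (0.0716) and -0.31 ± 0.30 in Nrf2 KO (0.831). Its level in DKO also differed from p65 KO, by 1.75 ± 0.30 (edgeR adjusted p = 0.0157), and from Nrf2 KO, by 2.91 ± 0.32 (0.00302). The first of these calls was lost without p65 KO 1 (1.41, edgeR adjusted p = 0.105) and with only the genotypes compared in the fit (1.77, 0.0613), and the second without Nrf2 KO 2 (2.64, 0.0517). For the interaction, in which the step from control to Nrf2 KO is subtracted from the step from p65 KO to DKO, Noct had a value of 2.07 ± 0.42 (edgeR adjusted p = 0.0688).

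Tsc22d3 encodes GILZ, the glucocorticoid-induced leucine zipper protein (chrX:139440091-139501408). Its normalized counts were 1228, 944, and 1600 in control, 3237 and 1302 in Nrf2 KO, 1785 and 2063 in p65 KO, and 2696, 4652, and 4371 in DKO. All DKO libraries were above the controls and above both p65 KO libraries, and Nrf2 KO 1 was within the DKO range. Against control, the log2 fold change was 1.63 ± 0.32 in DKO (edgeR adjusted p = 0.0181). It was 0.61 in p65 KO (95% interval -0.15 to 1.38, edgeR adjusted p = 0.254) and, for Nrf2 KO, 0.85 (0.09 to 1.62, adjusted p = 0.464). The DKO call was lost without control 1 (1.62, edgeR adjusted p = 0.0761) or control 2 (1.47, 0.0693).

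**Figure D3:**
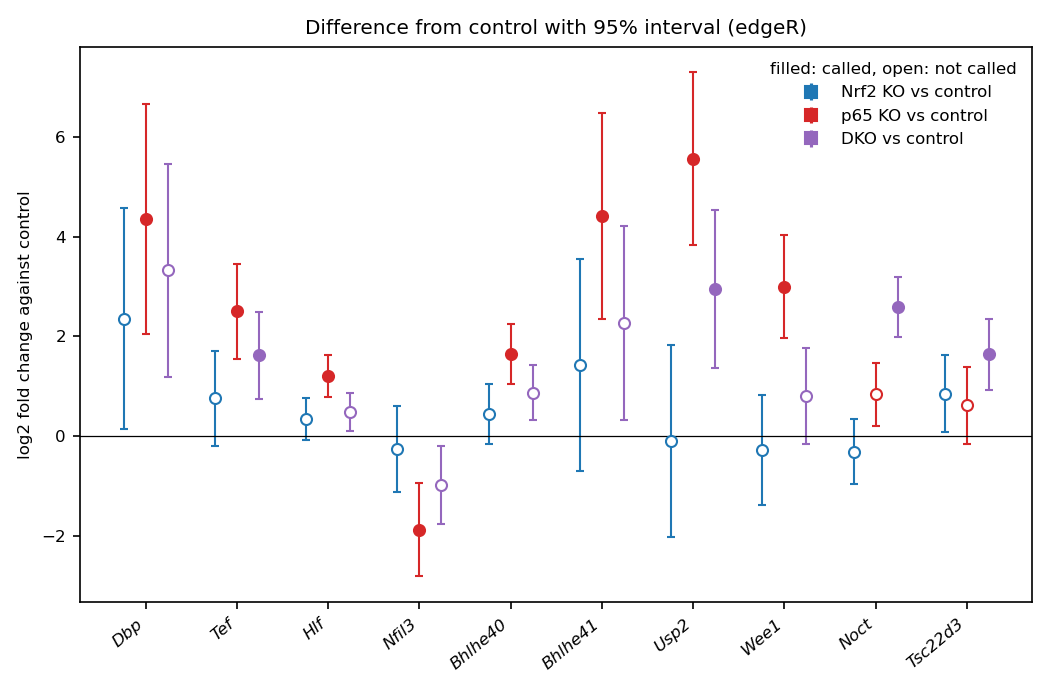
Log2 fold change against control of each clock output gene (points, edgeR) with its 95% interval (bars) for each of the 3 knockouts, filled where the gene was called. The 8 filled p65 KO points include Nfil3 at -1.88, the 4 filled DKO points are Tef, Usp2, Noct, and Tsc22d3, and no Nrf2 KO point is filled.

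Set against p65 KO directly, DKO had 1 member called higher, Noct, and 1 called lower, Wee1 (1.78% of all genes called). The libraries did not overlap for any of the 10 members (38.6% of all genes), with Nfil3, Noct, and Tsc22d3 above p65 KO in all DKO libraries and the other 7 below. The difference was -2.62 ± 0.68 for Usp2 (edgeR adjusted p = 0.057, called with limma, no filter, or library totals and without DKO 3) and -0.72 ± 0.19 for Hlf (0.0601), and that of Dbp was -1.02 (95% interval -3.11 to 1.07, edgeR adjusted p = 0.551). Scaling to library totals shifted the median of all genes in this comparison by -0.27 and gave 4 calls. Against Nrf2 KO, the only member called in DKO was Noct (0.433% of all genes called). Usp2 was higher than both Nrf2 KO libraries in all 3 DKO libraries, with a log2 difference of 3.04 ± 0.84 that did not pass (edgeR adjusted p = 0.149) and was called with DESeq2 (3.10, 0.041) and without DKO 1 (3.53, 0.0414).

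The interaction asks whether the effect of losing p65 differed with and without Nrf2. It was called for 0 of the 10 members by edgeR and by limma (0.455% of all genes by edgeR), whereas 8 had an unadjusted p under 0.05 and DESeq2 called 2, Hlf (lower) and Noct (higher). The share of all genes with such an unadjusted p was not determined, here or for the counts given for Nrf2 KO. The sign was negative for 7 members, and the largest values were -3.57 ± 1.27 for Bhlhe41 (edgeR adjusted p = 0.257) and -3.38 ± 1.38 for Dbp (0.325). Without Nrf2 KO 2 they were -0.63 for Bhlhe41 and 0.0014 for Dbp. These comparisons share libraries, and their values are given side by side without a test across members.

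The spread between mice of 1 genotype was wide for the same genes. The highest control library exceeded the lowest 9.41-fold for Dbp, 3.41-fold for Usp2, and 2.78-fold for Tef, whereas this ratio was 1.28 for Hlf and 1.24 for Noct and Bhlhe40. In Nrf2 KO the ratio was 19.8 for Dbp and 14.3 for Bhlhe41, while the 2 p65 KO libraries differed 1.01-fold for Dbp and Tef. Control 3 was the highest control for 6 members (Dbp, Tef, Usp2, Bhlhe41, Wee1, and Tsc22d3). Nrf2 KO 2 was the higher library of its genotype for 7 members and the lower for Nfil3, Noct, and Tsc22d3, and DKO 3 was the highest of its genotype for 8 members and the lowest for Nfil3. How often each library is the highest of its genotype over all genes was not determined. With Nrf2 KO 2 left out, the log2 fold change against control changed sign for Dbp (-1.02), Tef (-0.08), Bhlhe40 (-0.27), Bhlhe41 (-1.52), and Nfil3 (0.18), none of which was called with or without it.

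The core clock was measured in the same libraries. Of 5 core clock activators, 3 were called lower in p65 KO (1.54% of all genes) and 2 in DKO (1.02%), and 0 in Nrf2 KO by edgeR, where 0 had an unadjusted p under 0.05. Npas2, a partner of BMAL1, was at 117, 410, and 44.8 normalized counts in control, 222 and 25.1 in Nrf2 KO, 9.14 and 0.945 in p65 KO, and 5.26, 11.2, and 6.87 in DKO. All p65 KO and DKO libraries were below all others, and the log2 fold change was -5.24 in p65 KO (edgeR adjusted p = 0.0249) and -4.60 in DKO (0.0304). Both calls of Npas2 were lost with limma, the p65 KO call also without control 2, p65 KO 1, or p65 KO 2, and the DKO call also without control 1, control 2, or any DKO library, and over all alternatives its log2 fold change lay between -7.48 and -2.05 in p65 KO and between -5.06 and -1.96 in DKO. Bmal1 was lower by a log2 fold change of -4.93 in p65 KO (edgeR adjusted p = 0.000914) and -2.16 in DKO (0.0121), and Clock by -1.48 in p65 KO (0.00144).

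Of 8 core clock repressors, 6 were called higher in p65 KO (5.05% of all genes) and 4 in DKO (1.36%), and 0 were called in Nrf2 KO by edgeR, where 3 had an unadjusted p under 0.05. The 4 with the largest log2 fold change in p65 KO were Ciart (5.57), Per3 (4.19), Per2 (2.99), and Per1 (2.36), and in DKO the same 4 stood at 3.64, 2.98, 2.18, and 2.00. Per3, a period gene, was at 67.4, 63.9, and 94.3 normalized counts in control, 87.0 and 467 in Nrf2 KO, 1384 and 1380 in p65 KO, and 393, 504, and 892 in DKO. Nrf2 KO 2 was within the DKO range for Per3, as it was for Dbp, Tef, Hlf, Bhlhe40, and Bhlhe41. Leaving out single libraries ended the call of Per1 in p65 KO (control 1 or p65 KO 1), of Per1 in DKO (control 1, control 2, DKO 2, or DKO 3), of Ciart in DKO (any control or DKO 3), and of Per3 in DKO (control 1). The DKO calls of Per1 and Ciart were also lost with only the genotypes compared in the fit, and that of Ciart with limma.

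**Figure D4:**
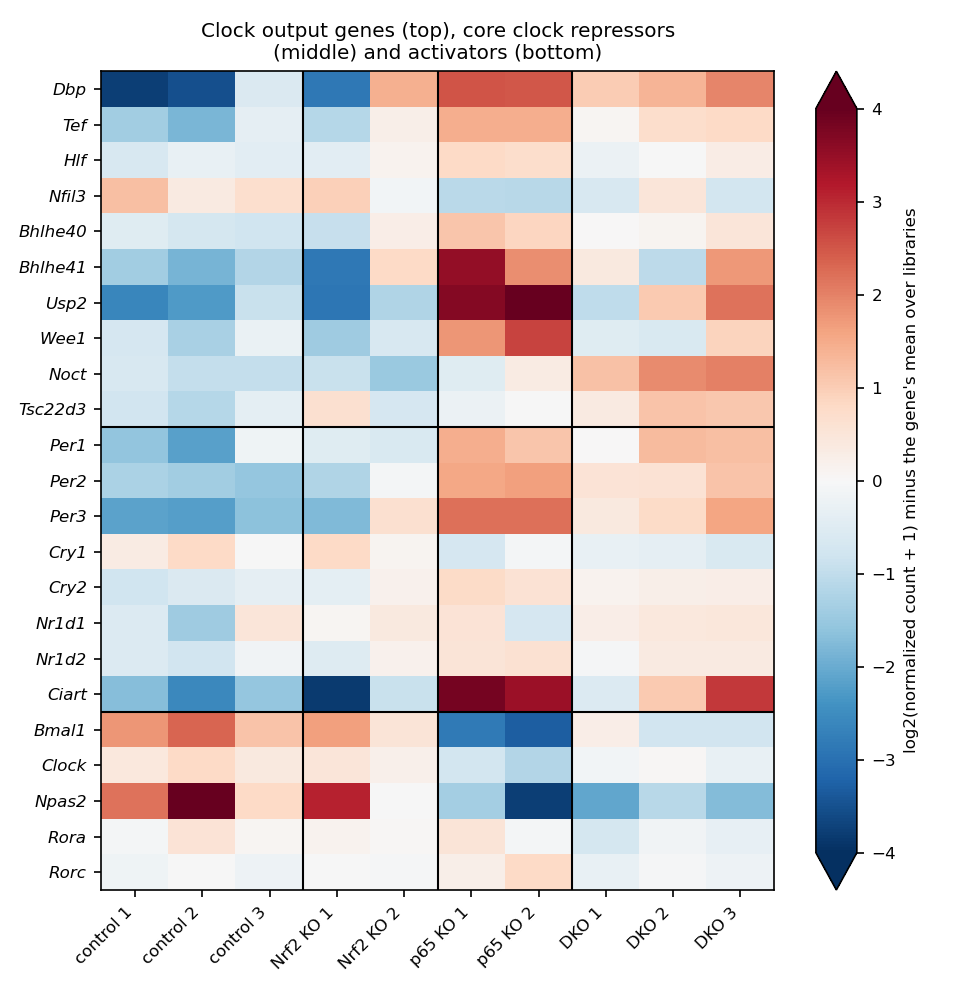
Log2(normalized count + 1) minus the gene's mean over the 10 libraries (colour) for the 10 clock output genes, 8 core clock repressors, and 5 core clock activators (rows) in each library (columns). In the p65 KO columns Dbp, Tef, Usp2, Per1, Per2, Per3, and Ciart lie above their means while Nfil3, Bmal1, Clock, and Npas2 lie below them.

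The PAR factors are known to act on genes of bile acid, drug, and fatty acid metabolism, and 10 such genes were followed. In p65 KO 5 were called higher and 2 lower (5.05% and 1.54% of all genes), in DKO 2 higher and 3 lower (1.36% and 1.02%), and in Nrf2 KO 0 higher and 2 lower (0.55% in either direction). The 2 were Alas1, of heme synthesis, at -2.53 (edgeR adjusted p = 0.0412), and Nr1i3, the receptor CAR, at -1.22 (0.0172). The Alas1 call was lost with limma and without control 1, control 2, either library of the single knockouts, or DKO 3, and the Nr1i3 call without control 1, control 2, or either Nrf2 KO library. Nr1i3 was also called lower in DKO than in control (-1.475, edgeR adjusted p = 0.00133) and than in p65 KO (-1.918, 0.000791). Both of these calls were kept under every alternative, and Nr1i3 was not called in p65 KO (0.44, edgeR adjusted p = 0.117). Cyp2a4, a steroid hydroxylase, was at 8.83, 4.92, and 47.6 normalized counts in control, 2.97 and 0.808 in Nrf2 KO, 18096 and 17985 in p65 KO, and 1648, 5039, and 11.4 in DKO. Both p65 KO libraries were above all others and DKO 3 was within the control range. Its log2 fold change was 9.73 ± 1.62 in p65 KO (edgeR adjusted p = 0.00478) and 6.72 ± 1.47 in DKO (0.0268), and the DKO call was lost with limma, with only the genotypes compared in the fit, and without any 1 of the controls or DKO 2, with values between 3.75 and 8.34 over all alternatives. Reads of Cyp2a4 may be split with its near-identical neighbour Cyp2a5, and these values are therefore uncertain. Cyp2a5 was at 10066, 4659, and 5153 normalized counts in control, 28927 and 36009 in p65 KO, and 2149, 2538, and 9577 in DKO. Its log2 fold change was 2.29 in p65 KO (edgeR adjusted p = 0.0244) and -0.48 in DKO (0.619). DKO 3 had the lowest Cyp2a4 and the highest Cyp2a5 of the DKO libraries, so the DKO call of Cyp2a4 cannot be read apart from Cyp2a5.

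Cyp7a1, the rate-limiting enzyme of bile acid synthesis, was at 539, 1236, and 704 normalized counts in control, 2550 and 1799 in Nrf2 KO, 3882 and 10954 in p65 KO, and 4044, 3393, and 15217 in DKO. Every library of the 3 knockouts was above every control, and the log2 fold change was 3.17 ± 0.64 in p65 KO (edgeR adjusted p = 0.0111) and 3.19 ± 0.61 in DKO (0.0163). Without p65 KO 2 the first call was lost, and without control 1 or control 3 the second. The fatty acid hydroxylases Cyp4a14 and Cyp4a10 were lower in p65 KO, by log2 fold changes of -4.66 (edgeR adjusted p = 0.0166) and -4.00 (0.0155), and in DKO, by -4.22 (0.0208) and -2.82 (0.0424). In Nrf2 KO they stood at -3.18 (edgeR adjusted p = 0.251) and -3.00 (0.211), with both libraries below all controls and no call with all libraries in the fit, while Cyp4a10 was called with DESeq2, with only the genotypes compared in the fit, and without DKO 1 or DKO 3, and Cyp4a14 with DESeq2. Both p65 KO calls were lost when either p65 KO library was left out. In DKO, the call of Cyp4a14 was lost without DKO 2, and that of Cyp4a10 with only the genotypes compared in the fit and without any single library other than DKO 1 and DKO 3.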

How the data were processed

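RNA of freshly isolated hepatocytes of 10 mice was sequenced as single-end reads from stranded, poly-A-enriched TruSeq libraries. The authors quantified the reads with Salmon (1.10.3 per the submitters' processing notes) on GRCm39 and deposited 1 estimated count per gene and library, rounded to whole numbers. Although the name of the table calls it normalized, totals (33707165 to 49897382) and median-of-ratios size factors (0.879 to 1.26) differed between libraries, and its values were treated as estimated counts without normalization. Gene names, positions, and promoter windows came from GENCODE M39 and the genome of GRCm39, which named 21926 of 21939 identifiers, whereas the authors used an earlier GENCODE release. The summing of transcripts to genes is not given in the sources used here.

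The quasi-likelihood test of edgeR 4.0.16 (R 4.3.3) was run with TMM normalization on the 13641 genes with a summed count of at least 10, in 1 model of the 4 genotypes, and Benjamini-Hochberg adjustment over all genes tested within each comparison. Genes were called at the thresholds of the study, an absolute log2 fold change of 1 or more and an adjusted p of at most 0.05. Normalized counts are the deposited counts scaled to the mean TMM effective library size. Standard errors and 95% intervals of log2 fold changes were derived from the quasi-likelihood test. DESeq2 1.42.0 and limma 3.58.1 on log2(CPM + 1) were used as alternatives. On simulated counts with 200 changed genes, edgeR recovered 97% of changes of 2 and 91% of changes of 1.5 on the log2 scale for p65 KO against control, among 13497 genes. The simulated spread followed the trend over all genes and not each gene's own spread, and no low-count gene was changed. These percentages therefore do not hold for genes that vary more between mice, such as Dbp.

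Equal replicate numbers do not pair mice in the labels, and libraries of 1 genotype differed by more than sampling noise (chi-square per degree of freedom 44.8 to 204). All 10 members are named. Of the other lists (core clock activators and repressors, genes of the D-box pathway, glucocorticoid-responsive genes), the up to 4 called genes with the largest change in p65 KO are named, and Alas1, Nr1i3, Sgk1, and Tat were added after their values were seen. The members and lists were chosen with earlier results of these data known. Marker lists of the liver's cell types were used to check the cells in each library.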

Additional observations from a re-analysis of the deposited data

How the results depend on the processing

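The counts of calls and the values of the members and the named genes were recomputed under other tools, filters, scalings, sets of libraries, and with each library left out. Of 15 calls of members over all comparisons, 6 were kept under each of 19 alternatives (Tef, Hlf, Usp2, Bhlhe40, and Wee1 in p65 KO and Noct in DKO against control) and 0 changed sign, and of 45 results not called, 11 were called under at least 1 alternative and 12 changed sign. For p65 KO against control, 8 members were called, and between 5 and 8 with 1 library left out, the lowest without control 1 or p65 KO 1. For DKO against control, 4 were called, 3 with limma, 5 with DESeq2 or no filter, 2 with only those 2 genotypes fitted, and 1 to 5 with a library left out, the lowest without control 1 or control 2. For DKO against p65 KO, 2 were called, 3 with DESeq2, limma, or no filter, 4 with library totals, 0 with only those 2 genotypes, and 0 to 3 with a library left out, the lowest without p65 KO 1. For DKO against Nrf2 KO, 1 was called, 2 with DESeq2, and 0 to 2 with a library left out, the lowest without Nrf2 KO 2. The interaction had 0 calls, 2 with DESeq2, 1 with no filter, 1 with library totals, and 0 to 1 with a library left out. In Nrf2 KO against control, 0 were called under every alternative. Apart from settings that use fewer libraries, the cause of these changes was not tested. With the replicate number as a block, 8 members were called in p65 KO, 5 in DKO, 3 between DKO and p65 KO, 1 between DKO and Nrf2 KO, 0 in Nrf2 KO, and 1 for the interaction, the DKO calls of Npas2 and Cyp2a4 were lost, and Dbp was called in DKO (3.96, edgeR adjusted p = 0.042). Correlations of the deviations of libraries with the same number were between -0.23 and 0.11 over 13 pairs, so the numbers were not taken to pair the mice. With a genotype reduced to 1 library, that library was assumed to vary like the others. Genotypes of 2 and 3 mice, killed in the morning at hours that the labels do not give, limit what these values can show. The p-values set each difference against the spread between mice of the same genotype, estimated over the 4 genotypes together.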

Other observations

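Because Tsc22d3 is a known target of the glucocorticoid receptor, 9 further glucocorticoid-responsive genes were followed. In p65 KO 3 were called higher (Mt2, Mt1, and Fkbp5), in DKO 4 were called higher (Sgk1, Mt2, Tat, and Mt1), in Nrf2 KO 1 was called higher (Sgk1), and none was called lower in these comparisons (5.05%, 1.36%, and 0.55% of all genes were called higher in p65 KO, higher in DKO, and in either direction in Nrf2 KO). The log2 fold change was positive for 7 and negative for 2 in both p65 KO and DKO, and positive for 4 and negative for 5 in Nrf2 KO. The negative ones were Pck1 (-0.36) and Tat (-0.26) in p65 KO and Klf9 (-0.63) and Dusp1 (-0.33) in DKO. For Klf9, all DKO libraries were below all controls (edgeR adjusted p = 0.0562). Mt2, a metallothionein that binds zinc, was at 23.2, 40.3, and 105 normalized counts in control, 90.0 and 76.0 in Nrf2 KO, 378 and 555 in p65 KO, and 172, 305, and 262 in DKO. Every p65 KO and DKO library was above every control, and the log2 fold change was 3.03 in p65 KO (edgeR adjusted p = 0.00345) and 2.11 in DKO (0.022). Reads of Mt1 and Mt2 may be shared between these similar genes. These DKO calls were lost without control 1, control 2, or DKO 2 for Mt2 and without most single libraries for Mt1, and both with only the genotypes compared in the fit.

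Sgk1, a serum- and glucocorticoid-regulated kinase, was at 231, 131, and 138 normalized counts in control, 803 and 437 in Nrf2 KO, 317 and 324 in p65 KO, and 1136, 784, and 803 in DKO. Every knockout library was above every control. Its log2 fold change was 1.90 in Nrf2 KO (edgeR adjusted p = 0.0172), 2.45 in DKO (0.00133), and 0.95 in p65 KO (0.0554). The Nrf2 KO call was lost without control 2, control 3, or Nrf2 KO 1, and the DKO call was kept under all 19 alternatives. Tat, the liver enzyme that breaks down tyrosine, was at 39385, 25764, and 31131 normalized counts in control, 72410 and 43003 in Nrf2 KO, 30931 and 22510 in p65 KO, and 69715, 124748, and 101867 in DKO. All DKO and Nrf2 KO libraries were above the controls, and both p65 KO libraries were below the highest control. Its log2 fold change was 1.62 in DKO (edgeR adjusted p = 0.00766) and -0.26 in p65 KO (0.568). Fkbp5, a co-chaperone of the glucocorticoid receptor, was higher in p65 KO by a log2 fold change of 1.97 (edgeR adjusted p = 0.0157), a call lost without control 1 or either p65 KO library, and its log2 fold change was 0.67 in DKO (0.341).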
